A study of Mus musculus with 12 samples.

Results

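Thalamic marker genes, expressed at a high level in the thalamus, were followed through a bulk RNA sequencing experiment on mouse cortex. The 5 members, Gbx2, Tcf7l2, Lef1, Prkcd and Ramp3, were taken by symbol from a table of 33024 gene symbols. Of these, 4 had enough counts for the test that was run over 16059 genes, and Gbx2 was too low for it and was tested alone. The mice were C57BL/6 wildtype animals, 7 in the Control group, labelled as vehicle-treated, and 5 in the EtOH group. From 30 days of age, EtOH mice had a bottle of 20% (v/v) ethanol beside their water in 35 drinking sessions of 12 h at night, a model of binge-like intake, and Control mice drank water. A period of 14 days without ethanol and a set of behavioural tests preceded the harvest of the cortex, so the comparison asks what differed after abstinence. No library came from the end of drinking, so a difference that remained cannot be told apart from one that arose later. Each library is taken as 1 mouse, as the labels have it, and the labels state neither sex nor cage in words, while each mouse's name ends in an M that they do not explain.

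The thalamus relays sensory and motor signals to the cortex, and its excitatory neurons carry a set of transcription factors that set them apart from cortical neurons. Gbx2 is a homeobox factor of the developing thalamus, and Tcf7l2 and Lef1 are DNA-binding partners of beta-catenin that switch on Wnt target genes. Prkcd encodes protein kinase C delta, a calcium-independent kinase of thalamic relay neurons, and Ramp3 encodes a membrane protein that joins the calcitonin receptor and its relative Calcrl and sets which peptides they bind. None of these genes is exclusive to the thalamus, since Tcf7l2 is also known in oligodendrocytes, Lef1 in brain endothelium and Gbx2 in cholinergic neurons of the striatum.

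Total counts ranged from 31768079 to 40690226 in Control and from 32048725 to 42183031 in EtOH mice. Levels are given as CPM, the usual counts-per-library scale, here after adjustment of library sizes with TMM factors, on which 3 counts stood for 0.06954 to 0.09621 CPM. The cortical label was met by markers of the tissue, such as Slc17a7, the vesicular glutamate transporter of cortical excitatory neurons, at 1960 ± 144 CPM (SD, n = 7) in Control and 1910 ± 223 CPM (SD, n = 5) in EtOH mice. Tbr1, a factor of deep-layer neurons, stood at 190 ± 16 and 145 ± 20.8 CPM (SD, n = 7 and 5), and of 9 cortex genes 1, Fezf2, was called higher, with a median log2 fold change of -0.01 over the list. The groups also differed in markers of neighbouring regions. The summed level of 12 striatum genes was 1030 to 2470 CPM in Control and 256 to 322 CPM in EtOH mice, with 12 of 12 called lower (median -2.73), among them Ppp1r1b with a log2 fold change of -2.63 and Pde10a with -2.05. Of 8 hippocampus genes 7 were called higher (median 2.77), among them Fibcd1, and their sum was 59.2 to 69 against 171 to 225 CPM, while the uncalled Grik4 had a log2 fold change of 0.19. Of the 7 choroid plexus genes 6 were tested and 4 were called higher (median 1.87; 2 without EtOH 3, 2 with the replicate block and 1 with limma voom), among them Ttr and Kl, with sums of 8.08 to 22.8 CPM in Control and 12.2 to 996 CPM in EtOH mice. In bulk tissue, fewer cells of a type and less RNA per cell cannot be told apart, and the part of these regions in the values below was not tested.

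No member with a genome-wide test was called different, and the 1 member without such a test, Gbx2, was close to absent from EtOH mice. Among the 4 tested members, 0 were called at an adjusted p under 0.05 (edgeR's quasi-likelihood test, Benjamini-Hochberg) with a log2 fold change above 0.5 in size, against 4.2% of all tested genes called higher and 4.09% called lower in EtOH mice. DESeq2 and limma voom also called 0 of the 4, and 1 of them, Ramp3, had an unadjusted p under 0.05. The log2 fold changes of EtOH against Control ran from -0.36 to 0.26, with 3 negative and 1 positive and a median of -0.17, where the median over all tested genes was 7.2e-05 and their median size 0.152. The level in each mouse is plotted by member.

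**Figure D1:**
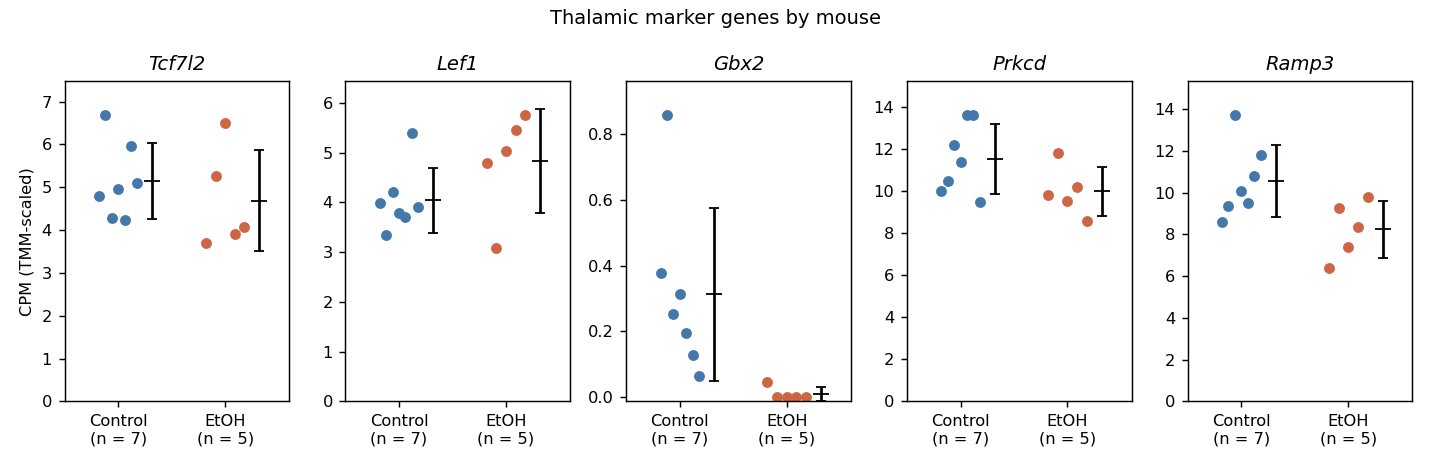
Level of each thalamic marker gene in CPM (linear axes, a separate scale for each gene) in 7 Control and 5 EtOH mice. Points are mice, and the bars give the mean ± SD, the lower end of which lies under 0 for Gbx2 in EtOH mice. The groups overlap for Tcf7l2, Lef1, Prkcd and Ramp3, while Gbx2 reaches 0.858 CPM in Control mice and stays at or below 0.0464 CPM in EtOH mice.

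Between genes, levels can be compared only per length, here as CPM per kilobase of annotated exon. On that scale Ramp3 was the highest member, at 7.58 ± 1.24 in Control and 5.93 ± 0.991 in EtOH mice (SD, n = 7 and 5). Prkcd came next with 1.02 ± 0.147 and 0.88 ± 0.104, and its lowest mouse in each group, 0.837 and 0.758, lay above the highest mouse of Tcf7l2, 0.745 and 0.725. Tcf7l2, at 0.574 ± 0.0993 and 0.523 ± 0.132, and Lef1, at 0.433 ± 0.0695 and 0.517 ± 0.112, were neighbours whose mice overlapped in both groups. Gbx2 was the lowest, at 0.142 ± 0.12 in Control and 0.00422 ± 0.00944 in EtOH mice, and in Control mice its highest value of 0.391 overlapped the lowest value of Lef1, 0.358. All members were low beside the cortical marker Slc17a7, with 353 CPM per kilobase in Control mice.

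Gbx2 is encoded on the minus strand of chromosome 1 (GRCm39 chr1:89855678-89858920). It was counted in every Control mouse and in 1 of 5 EtOH mice. Control mice 1 to 7 had 12, 28, 8, 10, 8, 4 and 2 counts, and EtOH mice had 2, 0, 0, 0 and 0 counts. In CPM, Control mice ran from 0.0641 through a median of 0.253 to 0.858, EtOH 1 had 0.0464, and the other EtOH mice had 0, which allows up to 3 counts or 0.08944 to 0.09334 CPM. No EtOH mouse reached a Control mouse in CPM, a separation seen for 9.81% of the tested genes, to which Gbx2 does not belong. In counts the groups met, since Control 7 and EtOH 1 each had 2, which is under the 3-count floor.

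Pooled over mice, Gbx2 had 72 counts in Control and 2 counts in EtOH mice, or 0.311 against 0.0114 CPM. All 8 nonzero counts of Gbx2 were even, and of the 44648 values from 1 to 10 over all genes 74.7% were even, with 15320 values of 2 and 4459 values of 1, a pattern that counting both mates of a read pair would give. The ratio of Control over EtOH was 27.1, with an exact 95% counting interval of 7.24 to 228 if each count is independent and of 4.57 to 1100 if counts are halved to 36 and 1. Both intervals cover counting error only, and the permutation test given here does not rest on them. Both EtOH counts came from EtOH 1, so that the ratio rests on that library and has no finite value without it, while the log2 difference given next was -2.39 without EtOH 1 (exact permutation p = 0.00303). On the log2 CPM scale with a prior count of 2, Gbx2 stood at -1.69 ± 0.93 in Control and -3.91 ± 0.37 in EtOH mice (SD, n = 7 and 5). The difference of -2.22 passed a permutation test, exact and two-sided, in which each of the 792 possible divisions into 7 and 5 mice was used (p = 0.00253). A prior count compresses the size of such a difference for a gene this low.

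Markers of the striatum and of cholinergic neurons were also lower in EtOH mice. The 5 genes of striatal cholinergic neurons shown, Chat, Slc5a7, Slc18a3, Lhx8 and Isl1, were picked after the Gbx2 values were seen. Of these 5 of 5 were called lower in EtOH mice, beside 4.09% of all tested genes. Chat, Slc18a3, Lhx8 and Isl1 were near 0 in EtOH mice and entered the test through the Control mice, where they were high. The calls are therefore a description and no support for the Gbx2 result. Chat, which makes acetylcholine, had 4.59 ± 1.78 CPM in Control and 0.236 ± 0.153 CPM in EtOH mice (SD, n = 7 and 5), and the choline transporter gene Slc5a7 had 7.77 ± 2.27 and 0.926 ± 0.126 CPM. Lhx8, a homeobox factor that these neurons need, was at 0 CPM in all 5 EtOH mice and at 0.513 to 3.34 CPM in Control mice. The sum of the list ran from 9.11 CPM in Control 7 to 30.6 CPM in Control 2 and from 0.954 to 2.02 CPM in EtOH mice. Within the Control group the order of the mice was shared only in part. Control 2 was the highest and Control 7 the lowest for Gbx2 and for both sums, while Control 6 was the second highest for both sums, at 26.1 and 2050 CPM, and the second lowest for Gbx2, at 0.128 CPM, as the plot of Gbx2 beside the marker sums shows. The part of these cells in the Gbx2 result was not tested.

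**Figure D2:**
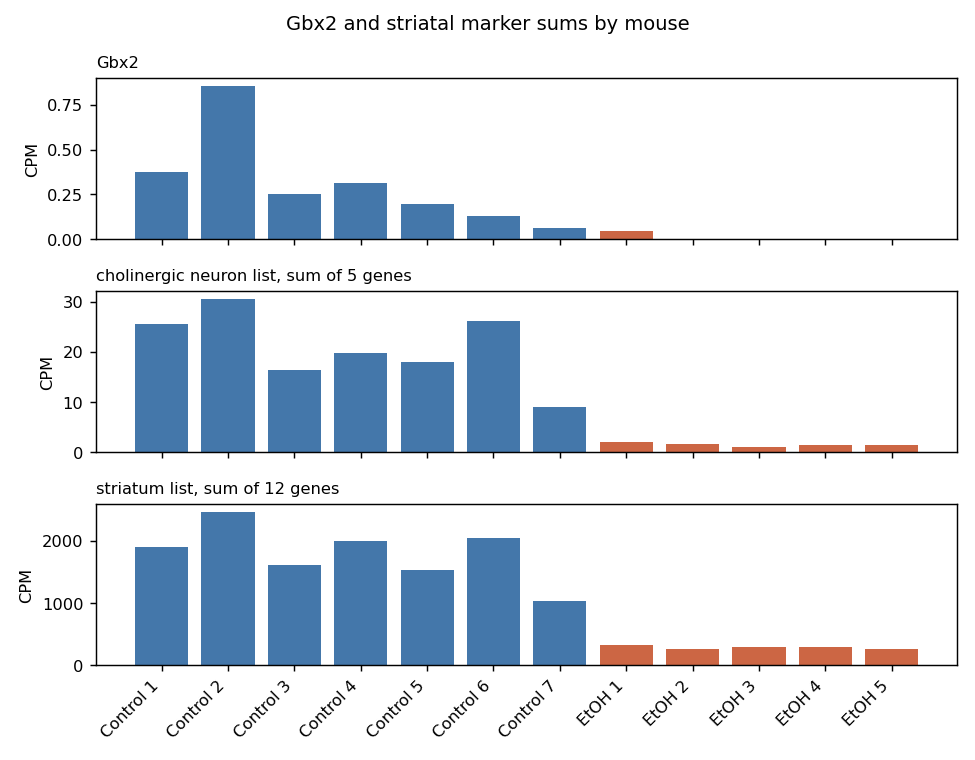
Gbx2 and the summed levels of 5 cholinergic neuron genes and 12 striatum genes in CPM (linear axes from 0), with 1 bar per mouse, Control in blue and EtOH in red. Control 2 has the tallest and Control 7 the shortest Control bar in each panel, Control 6 is second in both sums but sixth in Gbx2, and 4 of the 5 EtOH mice have no Gbx2 bar because their value is 0.

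Tcf7l2 lies on the plus strand of chromosome 19 (chr19:55730188-55922091). Control mice ran from 4.23 through a median of 4.97 to 6.68 CPM, and EtOH mice 1 to 5 had 3.69, 5.26, 6.5, 3.91 and 4.07 CPM. Of the EtOH mice 3 lay below every Control mouse, while EtOH 3 was second only to Control 2 among all 12. The means of 5.15 ± 0.89 and 4.69 ± 1.18 CPM (SD, n = 7 and 5) gave a log2 fold change of -0.14 with a standard error of 0.15, and the difference was within the spread between mice (edgeR adjusted p = 0.558). The coefficient of variation between EtOH mice was 25.2%, the largest among the 4 tested members, where counting alone would give about 7.76% at the mean of 166 counts, or 11% if 2 counts stand for 1 read pair.

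Lef1 is the other TCF/LEF member, on the plus strand of chromosome 3 (chr3:130903919-131018005). It had the only positive log2 fold change of the tested members, 0.26 with a standard error of 0.15 (edgeR adjusted p = 0.225). Control mice ran from 3.34 through 3.91 to 5.39 CPM, and EtOH mice had 4.8, 3.08, 5.04, 5.46 and 5.75 CPM. EtOH 2 was the lowest and EtOH 5 the highest of all 12 mice, so that the groups overlapped and differed by less than the spread. Without EtOH 2 the log2 fold change was 0.37 with a standard error of 0.13 (edgeR adjusted p = 0.0429), which passed the p threshold and stayed under the fold minimum of 0.5.

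EtOH 2 also stood apart in glial genes. The summed level of 10 mature oligodendrocyte genes was 5370 CPM in EtOH 2 and 3000 to 3740 CPM in the other EtOH mice, against 4480 to 5950 CPM in Control mice. Of these 10 genes, whose median was -0.42, 2 were called lower with all mice, Mbp and Mobp, 7 without EtOH 2, 0 without Control 7, EtOH 3 or EtOH 4, and 1 with the replicate number as a block. Among 6 genes of newly formed oligodendrocytes Bcas1 was called lower, a call that was lost without EtOH 3 or EtOH 4, Gpr17 had a log2 fold change of 0.19, and the median was 0.04. The 10 endothelial genes summed to 366 to 407 CPM in Control and 339 to 351 CPM in EtOH mice, without overlap and with a median of -0.08. Of these Ly6c1 was called lower, and Slc2a1 and Flt1, the highest of the list in CPM without regard to length, had log2 fold changes of -0.34 and 0.1. The part of these cells in the Lef1 and Tcf7l2 values was not tested.

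**Figure D3:**
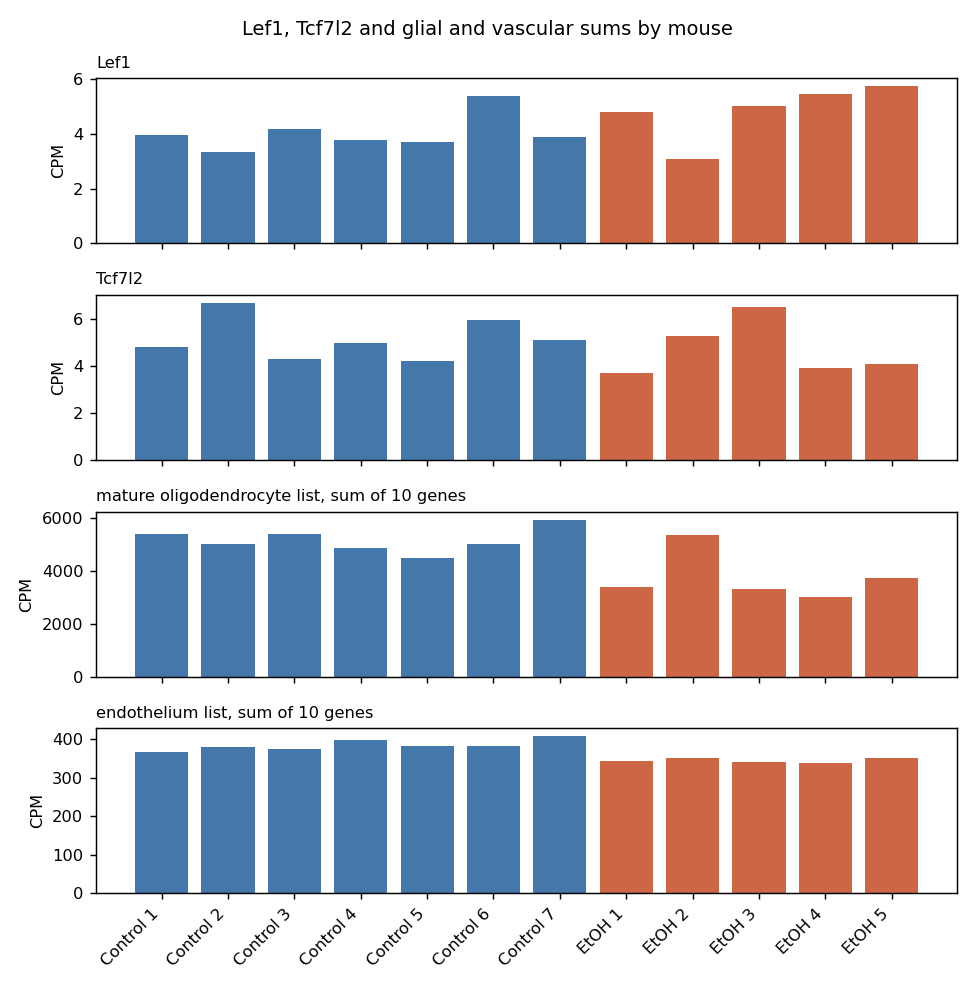
Lef1, Tcf7l2 and the summed levels of 10 mature oligodendrocyte and 10 endothelium genes in CPM (linear axes from 0), with 1 bar per mouse, Control in blue and EtOH in red. EtOH 2 has the lowest Lef1 bar, 3.08 CPM, and the tallest oligodendrocyte bar among the EtOH mice, 5370 CPM.

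Of the partners of Tcf7l2 and Lef1, 1 family member was called different. Among 12 TCF/LEF genes and cofactors, all tested, 0 were called higher and 1 lower, and the median log2 fold change was 0.05. Tcf7, another TCF/LEF factor, fell from 7.77 ± 1.38 to 4.52 ± 0.537 CPM (SD, n = 7 and 5), a log2 fold change of -0.78 with a standard error of 0.13 (edgeR adjusted p = 0.000425), and every EtOH mouse lay below every Control mouse. Ctnnb1, which encodes beta-catenin, and the cofactor gene Bcl9l had log2 fold changes of 0.07 and -0.01. The cofactor genes Bcl9 and Pygo1 passed the p threshold but not the fold minimum, with log2 fold changes of 0.43 (edgeR adjusted p = 0.000254) and 0.38 (edgeR adjusted p = 0.000166), and for both every EtOH mouse lay above every Control mouse.

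Of 8 Wnt target genes, 0 were called higher and 1 lower, with a median of -0.19. Lgr5, the receptor for R-spondins, fell from 9.49 ± 3.18 to 3.31 ± 0.507 CPM (SD, n = 7 and 5), with a log2 fold change of -1.52, a standard error of 0.22 and no overlap between groups (edgeR adjusted p = 7.64e-05). Axin2, the most widely used Wnt readout, had 28.5 ± 2.37 and 28.8 ± 2.36 CPM, and Apcdd1, a Wnt inhibitor, had 33 ± 4.71 and 30.4 ± 1.67 CPM, and neither passed the test. Nkd1, a feedback inhibitor of the pathway, passed the p threshold but not the fold minimum, at -0.26 on the log2 scale (edgeR adjusted p = 0.0211), and every EtOH mouse lay below every Control mouse.

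The sequences before the start sites were searched for the core of the TCF/LEF site, TCAAAG, on both strands (CTTTGA on the other), to show where the members themselves carry it. RefSeq gave 10 promoter windows for the 5 members, each 250 bases before to 50 after a start, from a table of build GRCm38.p6, and all were found letter for letter in GRCm39, whose coordinates are given. The core was present in 2 of the 10 windows, and in 5257 of 32851 windows of all genes (16%). An internal start of Lef1, on the plus strand, had 2 matches, the upstream window of Prkcd on the minus strand had 1, and the window of Gbx2, the member with the largest difference, had 0. These 3 windows are shown in the direction of the gene with the matches in capitals.
Lef1, chr3:130949693-130949992: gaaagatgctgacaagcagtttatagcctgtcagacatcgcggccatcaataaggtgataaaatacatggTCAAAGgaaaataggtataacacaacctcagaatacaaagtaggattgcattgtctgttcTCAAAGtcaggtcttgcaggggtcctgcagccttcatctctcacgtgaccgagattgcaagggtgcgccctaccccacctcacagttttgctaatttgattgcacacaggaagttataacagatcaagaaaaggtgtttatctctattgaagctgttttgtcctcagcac
Prkcd, chr14:30348116-30348415: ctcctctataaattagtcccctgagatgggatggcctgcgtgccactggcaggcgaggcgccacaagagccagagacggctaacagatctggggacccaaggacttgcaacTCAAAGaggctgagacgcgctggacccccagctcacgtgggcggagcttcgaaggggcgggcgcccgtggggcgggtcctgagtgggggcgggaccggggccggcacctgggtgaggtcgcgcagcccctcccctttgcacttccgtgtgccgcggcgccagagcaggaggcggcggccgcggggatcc
Gbx2, chr1:89858849-89859148: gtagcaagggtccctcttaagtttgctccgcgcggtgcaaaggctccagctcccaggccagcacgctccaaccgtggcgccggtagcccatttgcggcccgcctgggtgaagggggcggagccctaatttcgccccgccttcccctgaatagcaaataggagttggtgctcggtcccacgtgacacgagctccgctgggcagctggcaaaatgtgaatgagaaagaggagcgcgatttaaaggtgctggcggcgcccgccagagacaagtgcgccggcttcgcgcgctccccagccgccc
A match describes the letters in the window, not binding, and nothing was measured at these windows.

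Prkcd, on the minus strand of chromosome 14 (chr14:30317307-30349238), did not pass the test. Control mice ran from 9.49 through 11.4 to 13.6 CPM, and EtOH mice had 9.8, 11.8, 9.51, 10.2 and 8.6 CPM. The highest mice were Control 6 and Control 5 and the lowest was EtOH 5, but 4 of the 5 EtOH mice lay inside the Control range. The means of 11.5 ± 1.66 and 9.98 ± 1.18 CPM (SD, n = 7 and 5) gave a log2 fold change of -0.21 with a standard error of 0.11 (edgeR adjusted p = 0.161).

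Among the other 8 protein kinase C genes, 0 were called higher and 1 lower, with a median of -0.04. Prkch, which encodes protein kinase C eta, fell from 14.7 ± 3.98 to 3.98 ± 0.506 CPM (SD, n = 7 and 5), a log2 fold change of -1.89 with a standard error of 0.19 (edgeR adjusted p = 1.26e-06), and the groups did not overlap. The abundant cortical isoforms Prkce and Prkcb had 603 ± 9.07 and 580 ± 60.5 CPM in Control mice and log2 fold changes of 0.1 and -0.02, neither of which was called.

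Ramp3, on the plus strand of chromosome 11 (chr11:6608511-6627475), was the member nearest to a call. Control mice ran from 8.61 through 10.1 to 13.7 CPM, and EtOH mice had 6.4, 9.27, 7.39, 8.34 and 9.79 CPM. Of the EtOH mice 3 lay below every Control mouse, and EtOH 2 and EtOH 5 lay inside the Control range, whose top was Control 3. The means were 10.5 ± 1.72 and 8.24 ± 1.38 CPM (SD, n = 7 and 5). The log2 fold change of -0.36 with a standard error of 0.12 passed the p threshold (edgeR adjusted p = 0.046) but not the fold minimum.

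By p alone, Ramp3 was the 1 member of 4 to pass, beside 12.1% of all tested genes higher and 11.6% lower in EtOH mice. It lost the p threshold in 7 of 12 fits that each left out 1 mouse, namely without Control 3, 4, 6 or 7 or EtOH 1, 3 or 4, where the highest adjusted p was 0.133. In the fit with replicate number as a block, which uses mice 1 to 5 of each group, its log2 fold change was -0.31 (edgeR adjusted p = 0.116).

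Among the receptors and ligands that Ramp3 works with, a CGRP gene was called. Of 9 genes, 5 were tested, 1 was called higher and 0 lower, and the median log2 fold change was 0.15. Calca, which encodes calcitonin and CGRP, rose from 0.436 ± 0.229 to 1.48 ± 0.153 CPM (SD, n = 7 and 5), a log2 fold change of 1.74 with a standard error of 0.33 (edgeR adjusted p = 0.000984), and the groups did not overlap. Calcrl, the receptor gene of the list with a test, had 4.99 ± 0.871 and 6.16 ± 1.31 CPM (SD, n = 7 and 5) and did not pass (log2 fold change 0.3, standard error 0.15, edgeR adjusted p = 0.142). The sister genes Ramp1 and Ramp2 had log2 fold changes of 0.01 and -0.08 and were not called. Calcr, Calcb, Adm2 and Iapp were too low for the test. Calcr, the calcitonin receptor, had 0 to 21 counts in Control mice and at most 2 in an EtOH mouse. Calcb, the other CGRP gene, ran the other way, with 0 to 4 counts in Control and 8 to 16 in EtOH mice. Adm2 and Iapp had at most 2 counts in any mouse.

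Other genes used as thalamic markers were called in both directions. Of 19 such genes 18 were tested, 3 were called higher and 4 lower, and the median log2 fold change was -0.09. Their summed level was 809 to 881 CPM in Control and 803 to 882 CPM in EtOH mice, and the 5 members summed to 27.7 to 35.8 and 24.7 to 29.4 CPM. The 3 genes that rose were Slc17a6, the vesicular glutamate transporter of thalamic neurons, Ntng1, a membrane-anchored netrin of thalamocortical axons, and the LIM-homeobox factor Lhx9.

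Slc17a6 rose from 14.6 ± 2.01 to 30.9 ± 6.94 CPM (SD, n = 7 and 5), with a log2 fold change of 1.08 and a standard error of 0.12 (edgeR adjusted p = 8.34e-06). Ntng1 had a log2 fold change of 1.14 and Lhx9, from 0.34 ± 0.195 to 4.1 ± 2.27 CPM, one of 3.57. For all 3 genes every EtOH mouse lay above every Control mouse, where 9.81% of tested genes separated in either direction. Lhx9 had 4 to 22 counts in Control mice and passed the filter only with the EtOH mice, where it was high. A filter of at least 10 counts in every mouse drops it. The 4 genes that fell were Zic1, a zinc finger factor of medial thalamus and other regions, at -1.11, the troponin gene Tnnt1 at -1.15, the actin-binding Synpo2 at -0.64 and the pyruvate dehydrogenase phosphatase Pdp1 at -0.56. Adarb1, an RNA-editing enzyme, and the T-type calcium channel gene Cacna1g, abundant genes of the list, had -0.04 and 0.04. Lhx2, Plekhg1, Rgs16 and Plcb4 passed the p threshold but not the fold minimum (edgeR adjusted p = 0.000155, 0.007, 0.0352 and 0.0122). Their log2 fold changes were 0.43, 0.43, 0.37 and -0.39, and of these genes only Lhx2 had groups that did not overlap. By adjusted p alone 6 genes of the list were higher and 5 lower, beside 12.1% and 11.6% of all tested genes.

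Of 5 genes of the habenula, the neighbour of the thalamus, 4 were tested and 0 were called by edgeR, DESeq2 or limma voom, and 1, Nwd2, had an unadjusted p under 0.05. Nwd2 also passed the adjusted p threshold but not the fold minimum, at 0.37 on the log2 scale (edgeR adjusted p = 0.0137), and Chrnb3, a nicotinic receptor subunit gene, had -0.09. Over the 6 lists of related genes together, 55 of 61 genes were tested, 4 or 7.27% were called higher and 7 or 12.7% lower, beside 4.2% and 4.09% of all tested genes, and the median was -0.02. The log2 fold changes of the members and of these lists are plotted by gene.

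**Figure D4:**
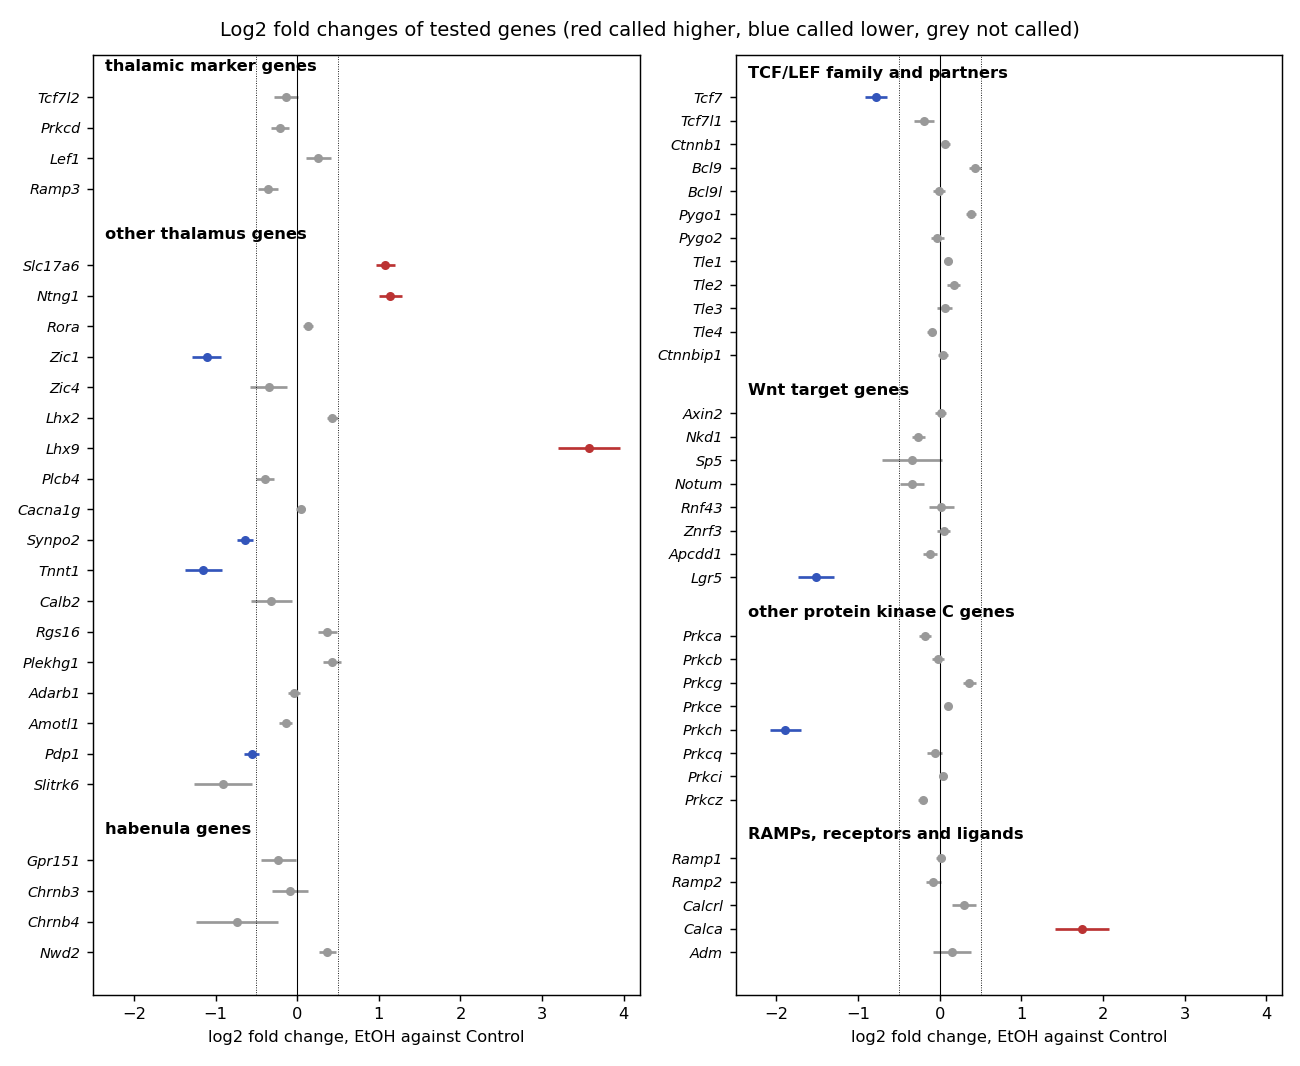
Log2 fold change of EtOH against Control with its standard error (horizontal bars) for the 4 tested members and 55 tested genes of 6 related lists. Dotted lines mark the fold minimum of 0.5, and colours mark called genes. The members lie between -0.36 and 0.26, and Lhx9 and Prkch are the extremes at 3.57 and -1.89.

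Across mice, the members were compared with all genes of at least 1 mean CPM, 14172 in number, by Pearson's r of log2 CPM after group means were removed, as a description over 12 mice. The genes most like Tcf7l2 were Wac (r = 0.92), Dram2 (0.92) and Zfp560 (0.88), those most like Lef1 were Ahdc1 (0.92), Dll3 (0.92) and Prag1 (0.9), those most like Prkcd were Zfp810 (0.89), Atad5 (0.88) and Patz1 (0.88), and those most like Ramp3 were Abtb1 (0.93), Necab3 (0.93) and Carlr (0.91). No gene was among the first 3 of more than 1 member, and 0 of the 12 belong to the lists above. Exons of all 5 members overlap a gene on the opposite strand, such as Lef1os1 for Lef1 and D130058E05Rik for Gbx2, and since the strand setting of the counting is not given, reads of the partners cannot be told apart from theirs.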

How the data were processed

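Cortex of 12 mice was sequenced, and the animals were perfused and the tissue snap-frozen before total RNA was extracted. The authors used FastQC 0.11.9 for quality control, STAR for alignment to GRCm39 with Gencode release 28 and featureCounts for gene counting, and deposited 1 table of expected counts per gene symbol, without normalization, in which 61 symbols hold values that are not whole. The strand setting of the counting is not given in the sources used here. Columns were matched to mice by name, with 0 unmatched.

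Counts were rounded, filtered with filterByExpr, scaled with TMM and compared with edgeR 4.0.16 (glmQLFit and glmQLFTest, R 4.3.3), with Benjamini-Hochberg adjustment over 16059 genes. A gene was called where the adjusted p was under 0.05 and the log2 fold change over 0.5 in size. The standard error is the size of the log2 fold change divided by the square root of F. Gbx2, left out by the filter, was compared by an exact permutation test. The 5 members and all lists were chosen with earlier results of these data known. Named genes were all members, called genes of the related lists and up to 2 uncalled genes with the highest CPM per list. To these were added the 2 with the highest mean CPM of each marker list and the 3 genes most like each tested member. The cholinergic genes, Calcrl, Calcr, Calcb, Adm2, Iapp, Bcl9, Pygo1, Nkd1, Fezf2, Mobp and Ly6c1 lie outside this rule and were named after their values were seen. The same holds for Lhx2, Plekhg1, Rgs16 and Plcb4. A gene that the rule selects in a marker list is not reported here. Positions and exon lengths are from Gencode vM39 on GRCm39. Alternatives were upper quartile and relative log expression factors, limma voom (limma 3.58.1), DESeq2 1.42.0, fold minimums of none or 1, looser and stricter filters, a replicate block and each mouse left out.

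The fits were tested on simulated data, in which edgeR over 15907 genes recovered 179 of 200 genes that had been moved by 1 on the log2 scale, with 2 false calls, DESeq2 184 with 5 and limma voom 178 with 3. P-values measure the spread between mice of a group.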

Additional observations from a re-analysis of the deposited data

Results flagged for a closer look

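The highest and lowest mouse of each group were compared with their neighbours for each member and for the total counts, 12 checks in all, of which chance marks about 1 in 20. Control 6 lay apart from the other Control mice for Lef1, at 5.39 CPM where the next was 4.2 CPM. Control 2 lay apart for Gbx2, at 0.858 CPM where the next was 0.376 CPM. EtOH 1 was also marked for Gbx2, at 0.0464 CPM (2 counts) where the other EtOH mice were at 0. Beside mice that are all at 0 any count stands apart, and 2 counts lie under the 3-count floor, so EtOH 1 cannot be told apart from them. Total counts were 40690226 in Control 5, where the next Control mouse had 32356909, and 42183031 in EtOH 1, where the next EtOH mouse had 33313165. Without these 2 deeper libraries, a check chosen after seeing the data, the log2 fold change of Ramp3 was -0.3 (adjusted p = 0.104, edgeR).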

How the results depend on the processing

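Every alternative run kept the sign of the log2 fold changes of Tcf7l2, Prkcd, Lef1 and Ramp3 and of the Gbx2 difference. Leaving out 1 mouse at a time gave -0.28 to -0.05 for Tcf7l2, -0.28 to -0.16 for Prkcd, 0.18 to 0.37 for Lef1, past the p threshold in 1 of 12 fits, and -0.43 to -0.27 for Ramp3. Ramp3 also missed the p threshold with the replicate block, at -0.31 (adjusted p = 0.116), and without the deeper library of each group, at -0.3. The block used mice 1 to 5 of each group, and the numbers do not pair the mice, since the correlations of same-numbered mice ran from -0.1078 to 0.01823 and 0 EtOH mice correlated best with their own number. The block was run for the 4 tested members, of which Tcf7l2, Prkcd and Lef1 stayed on their side of the p threshold and none was called, and not for Gbx2.

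The Gbx2 difference was -2.44 to -1.96 when each mouse was left out, -3.7 with a prior count of 0.5 (exact permutation p = 0.00126) and -4.41 in an edgeR fit of genes with at least 1 count in any mouse (adjusted p = 0.000911), an alternative added after seeing the data. That filter made 1 member called, Gbx2, and no fold minimum made 1 called, Ramp3. Over all genes 1331 were called, 3810 with no fold minimum and 524 with a minimum of 1, and 1162 to 1501 with a mouse left out. Of the other thalamic genes 7 were called, 11 with no fold minimum. The mature oligodendrocyte calls ran from 0 to 7 when each mouse was left out, with 7 without EtOH 2 and 0 without Control 7, EtOH 3 or EtOH 4, and the cause was not tested. The block gave 1 such call in place of 2. Choroid plexus calls were 4, 2 without EtOH 3, 2 with the block, 2 with at least 10 counts in every mouse and 1 with limma voom. Newly formed oligodendrocyte calls were 1, and 0 without EtOH 3 or EtOH 4. With no fold minimum, calls were 1 in the habenula, 3 in the TCF/LEF, 2 in the Wnt target, 3 in the protein kinase C, 5 in the cortex, 2 in the endothelium, 8 in the mature and 3 in the new oligodendrocyte lists, and with a minimum of 1 the TCF/LEF, cortex, endothelium and both oligodendrocyte lists had 0. The list around Ramp3 had 3 calls with at least 1 count in any mouse and 0 with at least 10 in every mouse. With Spearman's rho in place of Pearson's r, 1 of the 3 genes most like Lef1 stayed. Depth limits Gbx2, whose 0 counts allow up to 3 if counts are independent.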
